A study of Sus scrofa with 17 samples.

Results

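PARP12 and PARP14 are ADP-ribosyltransferases whose genes are induced by interferon, and their expression was followed in porcine kidneys perfused with or without extracellular vesicles (EVs). They are 2 of the 26560 genes in the deposited count table. Both were picked because the table of the G3 with G1 comparison that the authors deposited lists them, so that the kidneys of G1 and G3 chose them. Their difference between G3 and G1 is therefore given below as a description, without a test.

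The study asked whether EVs from porcine urine progenitor cells (pUPC-EVs), given through the perfusion circuit, act on a kidney graft. The pigs were female wild-type Dutch Landrace animals from a slaughterhouse, aged between 6 months and 1 year, and each gave 1 kidney. Every kidney went through 32 min of warm ischemia, then 24 h of hypothermic machine perfusion (HMP), and finally 5 h of normothermic machine perfusion (NMP), after which the tissue was frozen. G1 (5 kidneys) was injected with PBS-1X in both phases. G2 (6 kidneys) was injected with pUPC-EVs in HMP alone. G3 (6 kidneys) was injected with pUPC-EVs in HMP and once more in NMP. No group had EVs in NMP alone, so in G3 the number of injections and the phase of the last one cannot be told apart. The EVs came from cultured cells grown from pooled colonies, and the kidneys were perfused outside the animal. The solution used in NMP held blood cells from the same pig.

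Enzymes of the PARP family move ADP-ribose from NAD+ onto other molecules. PARP1 and PARP2 build long chains at damaged DNA, whereas PARP12 and PARP14 add a single ADP-ribose unit. PARP12 carries CCCH zinc fingers and WWE domains, is found at the Golgi and in stress granules, and restrains the replication of several RNA viruses. PARP14, also called ARTD8, carries macrodomains that bind ADP-ribose beside its catalytic domain, and is known as a co-activator of STAT6 in interleukin 4 signalling and as a regulator of interferon responses. PARP9 and its partner DTX3L, an E3 ubiquitin ligase, PARP11, and ZC3HAV1 (PARP13, a zinc-finger antiviral protein without catalytic activity) belong to the same interferon-linked group. The genes of PARP14, DTX3L and PARP9 are neighbours in the pig as in other mammals.

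In RefSeq's annotation of Sscrofa11.1, PARP12 (ENSSSCG00000016502) lies at chr18:9673841-9715169 between KDM7A and TBXAS1. PARP14 (ENSSSCG00000011874) lies at chr13:137809499-137865383, next to HSPBAP1. DTX3L begins 84.9 kb further along chromosome 13, at chr13:137950266-137961381, and PARP9 lies at chr13:137960987-138000862. The annotated spans of DTX3L and PARP9 share 395 bases. Whether the reads were counted by strand is not given in the sources used here, so reads in that shared stretch could belong to either gene.

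Depth was 19270046 to 24736473 counts per kidney, with a median of 21504848, and 18813 to 21049 genes had at least 1 count. The count reached 1360 in 1 kidney for PARP12 and 4580 for PARP14. The counting error was at most 5.56% of the value for PARP12 and 3.81% for PARP14, far less than the differences between kidneys of 1 group. Levels are given as CPM, counts divided by the size of the library after scaling with TMM factors, and they are compared between kidneys only, because no transcript lengths were used. Proximal tubule markers were abundant in all kidneys, with a summed level of at least 11030 CPM over 7 genes. The sample codes fall into 3 runs of numbers, called code series A, B and C here, and what separates them is not stated. G1 had 2 kidneys in series A, 2 in B and 1 in C. G2 had 2 in A and 4 in C, and G3 had 1 in A, 1 in B and 4 in C.

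PARP12 stood at 18.95, 14.8, 20.1, 24.2 and 38.7 CPM in G1 kidneys 1 to 5. In G2 it ran from 16.8 to 31.4 CPM with a median of 24.7, and in G3 from 26.9 to 53.4 with a median of 44.9. All G2 kidneys thus lay within the wider range of G1, and 4 of the 6 G3 kidneys lay above all of G1 and all of G2. The 2 other G3 kidneys, numbers 2 and 4 at 30.2 and 26.9 CPM, lay within the range of both other groups. G1 kidney 5 was the highest kidney outside G3 and stood above these 2. PARP12 averaged 23.4 ± 9.22 CPM in G1 (SD, n = 5), 24.1 ± 5.75 in G2 (SD, n = 6) and 41.6 ± 11.0 in G3 (SD, n = 6).

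PARP14 stood at 29.9, 42.4, 63.2, 79.3 and 80.5 CPM in G1 kidneys 1 to 5. In G2 it ran from 39.1 to 104.1 CPM with a median of 52.0, and in G3 from 69.5 to 180.0 with a median of 102.8. All groups overlapped: 4 of the 6 G3 kidneys lay above all of G1, 3 lay above all of G2, and G2 kidneys 3 and 6 lay above all of G1. The highest 3 of the 17 kidneys were G3 kidneys 3, 6 and 5. G2 kidneys 3 and 6 and G3 kidney 6 had the fewest genes with a count, 18926, 18813 and 18968. Their TMM factors, 0.880, 0.872 and 0.825, were also the lowest. The part of this in their PARP14 levels was not tested. PARP14 averaged 59.1 ± 22.4 CPM in G1 (SD, n = 5), 63.0 ± 26.8 in G2 (SD, n = 6) and 114.5 ± 46.0 in G3 (SD, n = 6). In bulk tissue, more cells of a type with these transcripts and more transcript per cell cannot be told apart.

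**Figure D1:**
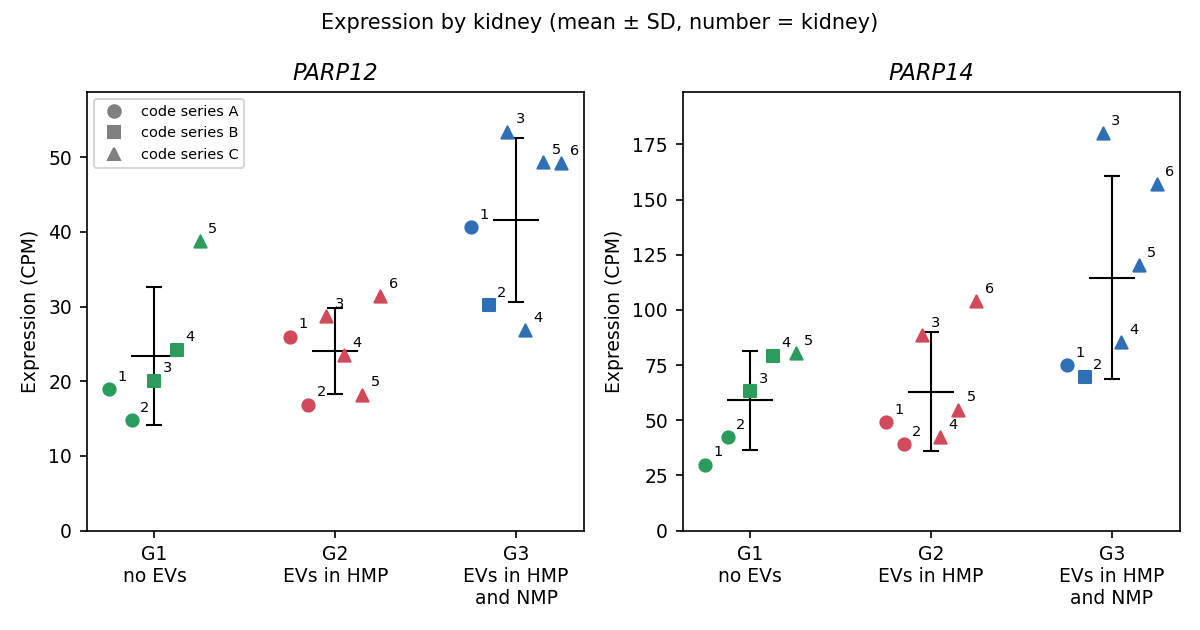
Expression of PARP12 (left) and PARP14 (right) in CPM on the vertical axis, by group on the horizontal axis, with 1 numbered point per kidney, its shape giving the code series, and bars giving the mean ± SD. G3 kidneys 3, 5 and 6 stand highest for PARP14, while for PARP12 G3 kidneys 2 and 4 lie below G1 kidney 5.

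In G3 against G1, the contrast the genes were chosen from, the log2 fold change was 0.82 (SE 0.227) for PARP12 and 0.95 (SE 0.275) for PARP14, or 1.77-fold and 1.93-fold. These values carry no test here. Over all genes, 2 of 25719 had an adjusted p under 0.05 in this contrast by edgeR's quasi-likelihood test with Benjamini-Hochberg adjustment, or 0.00778%. A log2 fold change above 0 was found for 46.9% of genes. All G3 kidneys lay above all G1 kidneys for 0.124% of genes, to which neither PARP12 nor PARP14 belongs. The fold changes were not even over the code series. For PARP12 the difference of mean log2 CPM between G3 and G1 was 1.27 in series A, 0.45 in series B and 0.16 in series C. For PARP14 it was 1.07 in series A, -0.03 in series B and 0.70 in series C. Series A and B each held a single G3 kidney and series C a single G1 kidney, so none of these within-series values has a spread on both sides.

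G2 against G1 asks what EVs in HMP alone were followed by at the end of NMP, and there the levels of both genes lay close together. The log2 fold change was 0.04 (SE 0.223) for PARP12 and 0.09 (SE 0.281) for PARP14, both smaller than their standard errors. Neither passed edgeR's quasi-likelihood test with Benjamini-Hochberg adjustment (adjusted p = 0.986 and 0.978). No gene of 25699 passed it in this comparison (0%), although 901 genes (3.51%) had an unadjusted p under 0.05, 1.42% of genes with a higher level in G2, and DESeq2 called 1 gene. A value above 0, as for both PARP genes, was found for 49.3% of genes, and all G2 kidneys lay above all of G1 for 0.0817%. The sign for PARP12 turned to -0.11 with code series as a covariate and for PARP14 to -0.08 with kidney number as a block. Within series the PARP12 difference was 0.32 in A and -0.63 in C, and the PARP14 difference was 0.30 in A and -0.24 in C. Leaving out G1 kidney 5, the highest of its group for both genes, gave 0.30 for PARP12 and 0.23 for PARP14. The kidneys of G1 had been used to pick the genes and also serve here.

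G3 against G2 asks about the injection during NMP, since both groups had EVs in HMP. The log2 fold change was 0.79 (SE 0.192) for PARP12 and 0.87 (SE 0.274) for PARP14, or 1.73-fold and 1.82-fold. Neither gene passed edgeR's quasi-likelihood test with Benjamini-Hochberg adjustment over 25701 genes, with an adjusted p of 0.948 for both. With kidney number as a block, which does not mark a shared animal, edgeR gave PARP14 0.87 with an adjusted p of 0.0373 and PARP12 0.78 with an adjusted p of 0.0886. The unadjusted p of the same edgeR test was 0.000649 for PARP12, the 12th smallest of all genes, and 0.00564 for PARP14, the 67th smallest. No gene passed in this comparison (0%), 805 genes (3.13%) had an unadjusted p under 0.05, and DESeq2 called 3 genes. Of these 805 genes, 415 were higher in G3, or 1.61% of the genes tested. A value above 0 was found for 49.7% of genes, and all G3 kidneys lay above all of G2 for 0.0584%, without PARP12 or PARP14. Within series the G3 minus G2 difference was 0.95 in A and 0.79 in C for PARP12, and 0.78 in A and 0.94 in C for PARP14. This comparison shares the G3 kidneys with the contrast the genes were chosen from and is no separate evidence for the direction. Leaving out G3 kidney 3 lowered the PARP14 difference to 0.69, and leaving out G2 kidney 6 raised it to 1.07.

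**Figure D2:**
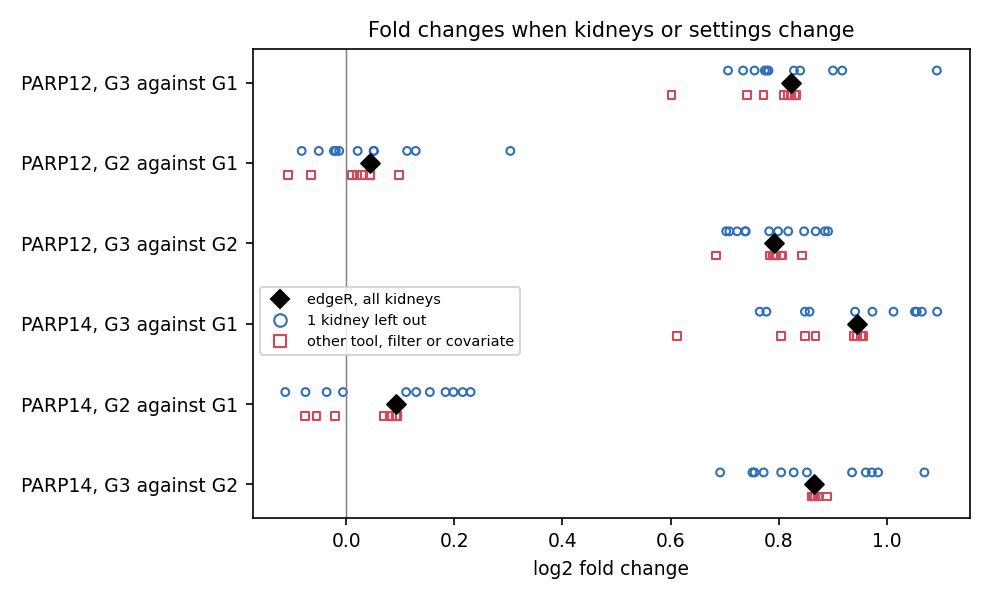
Log2 fold changes (horizontal axis) of PARP12 and PARP14 in the 3 comparisons (rows), with the value from all kidneys as a diamond, each value with 1 kidney left out as a circle, and each value from another tool, filter or covariate as a square. G3 against G1 and G3 against G2 lie above 0 in all of these, from 0.60 to 1.09, while G2 against G1 falls on both sides of 0.

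The spread between kidneys was described for each group as well. The coefficient of variation of PARP12 was 39.5% in G1, 23.9% in G2 and 26.5% in G3, and that of PARP14 was 38.0%, 42.6% and 40.1%. PARP12 thus varied most in G1, where kidney 5 stood far above the others, and PARP14 varied about as much in each group. No test of the spread was made.

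The 2 genes did not order the kidneys in the same way. G3 kidney 3 was highest for both, and the lowest kidney was G1 kidney 2 for PARP12 and G1 kidney 1 for PARP14. G2 kidney 6 was in 4th place for PARP14 and 6th for PARP12, while G3 kidney 1 was in 4th place for PARP12 and 9th for PARP14. The ratio of PARP14 to PARP12 counts ran from 1.58 to 3.27 in G1 (median 2.86), from 1.81 to 3.31 in G2 (median 2.66) and from 1.85 to 3.37 in G3 (median 2.81). The groups overlapped almost fully. This ratio follows transcript length as well as expression and is of use only between kidneys.

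Within a group, a kidney with more PARP12 tended to have more PARP14, but no exact test over all kidneys of a group passed 0.05. In G2 the correlation of log2 CPM over 6 kidneys was r = 0.769 (exact two-sided permutation p = 0.0861) and rho = 0.829 (exact p = 0.0583). In G3 it was r = 0.808 (exact p = 0.0639) and rho = 0.771 (exact p = 0.103). With adjustment over these 2 groups the exact p was 0.0861 for r and 0.103 for rho in both. Without the 2 kidneys farthest from the median of PARP12, r was 0.968 in G2 and 0.956 in G3, each over 4 kidneys. With the code series means removed, r was 0.734 in G2 and 0.899 in G3. In G3 the only kidneys of series A and B then stand at 0 for both genes, and the 4 kidneys of series C set the value. Values with series means removed cannot be exchanged freely between kidneys, so no exact p is given for them. With library size alone in place of TMM factors, r was 0.552 in G2 (exact p = 0.244). G1 had 5 kidneys, under the minimum of 6 set for testing a correlation in a group. Because the groups differ in level, values over the kidneys of all groups are given below only with the group means removed, without a test.

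**Figure D3:**
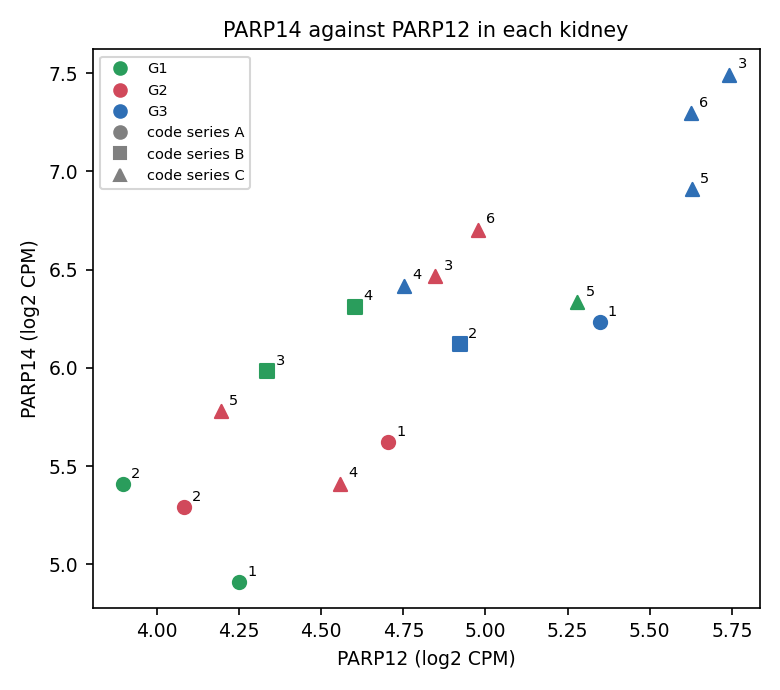
PARP14 against PARP12, both in log2 CPM, with 1 numbered point per kidney, coloured by group and shaped by code series. G3 kidneys 3, 5 and 6 lie apart at the upper right, kidney 1 lies above all of G1 and G2 for PARP12 but not for PARP14, and kidneys 2 and 4 lie among G1 and G2.

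Of the interferon-linked relatives, PARP9, DTX3L and ZC3HAV1 resembled PARP12 and PARP14 in their group means, which were highest in G3. PARP9 averaged 18.5 ± 2.29 CPM in G1 (SD, n = 5), 18.8 ± 2.55 in G2 (SD, n = 6) and 28.4 ± 6.00 in G3 (SD, n = 6), and it had a log2 fold change of 0.61 (SE 0.153) between G3 and G1. DTX3L averaged 11.2 ± 2.61, 13.7 ± 5.94 and 20.8 ± 5.85 CPM, with a log2 fold change of 0.88 (SE 0.201) between G3 and G1. ZC3HAV1 averaged 56.7 ± 17.3, 66.1 ± 15.4 and 88.0 ± 22.6 CPM, with a log2 fold change of 0.63 (SE 0.196). None of the 3 passed edgeR's quasi-likelihood test with Benjamini-Hochberg adjustment between G3 and G1 (adjusted p = 0.478, 0.460 and 0.813), whereas DESeq2 called 1 of them, DTX3L, among 31 of 25719 genes (0.121%). For PARP9 and DTX3L, as for PARP14, the within-series difference between G3 and G1 was greatest in series A, at 0.88 and 1.31, and smallest in series B, at 0.14 and 0.07. For ZC3HAV1 this difference was 0.78 in series A, -0.04 in series B and 0.74 in series C. Between G3 and G2 the log2 fold change was 0.60 for PARP9 and for DTX3L and 0.42 for ZC3HAV1. With PARP11, all 4 of these relatives had an unadjusted p under 0.05 by edgeR in that comparison with a higher level in G3 (1.61% of all genes did), and 1 of the 4 had without G2 kidney 5.

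PARP11, which restrains type I interferon signalling by modifying the ligase subunit that marks the receptor chain IFNAR1 for degradation, was scarce, with 64 to 185 counts per kidney. It averaged 4.13 ± 0.270 CPM in G1 (SD, n = 5), 3.80 ± 0.673 in G2 (SD, n = 6) and 5.43 ± 1.501 in G3 (SD, n = 6). In G3, 5 of 6 kidneys lay above all of G1, and kidney 4, the lowest of G3 for PARP12, was the highest for PARP11 at 8.44 CPM. Its log2 fold change was 0.39 (SE 0.202) between G3 and G1 and 0.52 between G3 and G2.

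The rest of the family had smaller values. The DNA repair enzymes PARP1, PARP2 and PARP3 had log2 fold changes of -0.12, -0.07 and 0.20 between G3 and G1. The tankyrases TNKS and TNKS2, which modify AXIN and telomere proteins, had 0.15 and -0.02, and the mono-ADP-ribosyltransferases PARP6, PARP8 and PARP16 had -0.06, -0.07 and -0.03. In the other comparisons PARP6 had -0.32 between G2 and G1 and 0.27 between G3 and G2, and PARP3 had 0.29 between G3 and G2. TIPARP (PARP7), a target of the aryl hydrocarbon receptor that also restrains interferon signalling, was abundant, at a mean of 278.1 CPM in G1, 285.8 in G2 and 262.1 in G3, and had -0.10. Of the 12 other PARP genes measured, none had an adjusted p under 0.05 in any of the 3 comparisons by edgeR's quasi-likelihood test or by DESeq2. An unadjusted p under 0.05 was reached by 2 of the 12 between G3 and G1, PARP9 and ZC3HAV1, where 4.73% of all genes reached it, and by none between G2 and G1. It was reached by 4 between G3 and G2, namely PARP3, PARP9, PARP11 and ZC3HAV1, all higher in G3, where 3.13% of all genes reached it and 1.61% did so with a higher level in G3. PARP4, PARP10 and PARP15 were not analysed here.

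**Figure D4:**
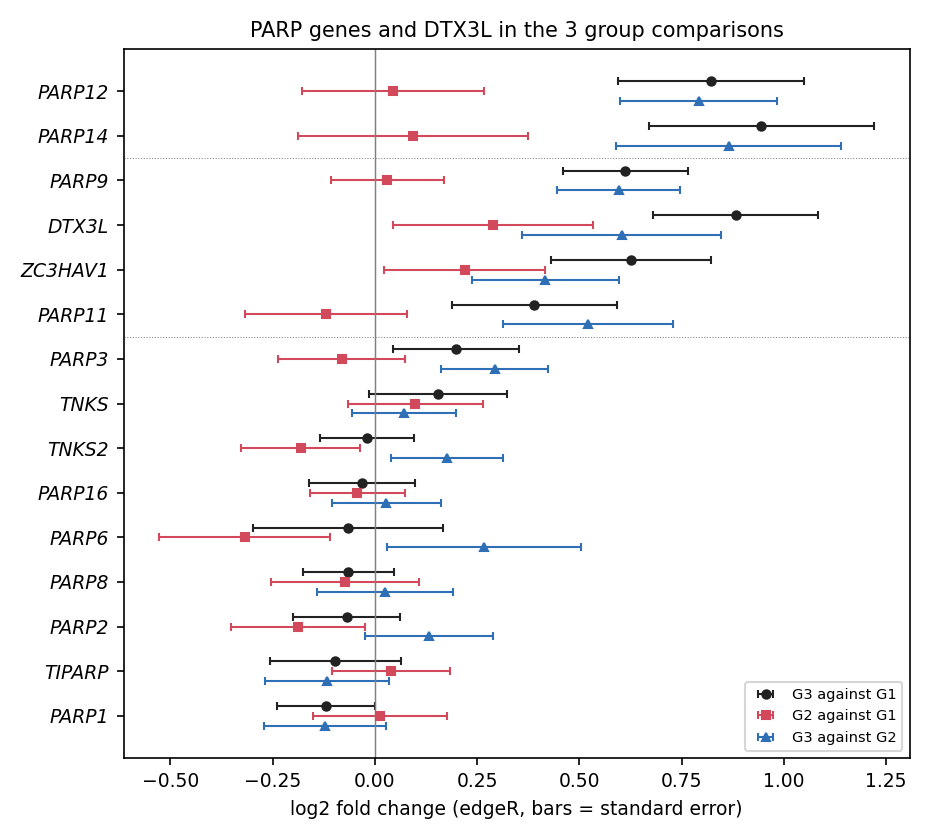
Log2 fold changes (horizontal axis) with standard errors as bars for the PARP genes and DTX3L, with each of the 3 comparisons in its own colour. PARP12, PARP14, PARP9, DTX3L, ZC3HAV1 and PARP11 have positive values in both comparisons with G3, and PARP1, PARP2, PARP8, PARP16, TIPARP, TNKS and TNKS2 lie within 0.2 of 0 in all 3.

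**Figure D5:**
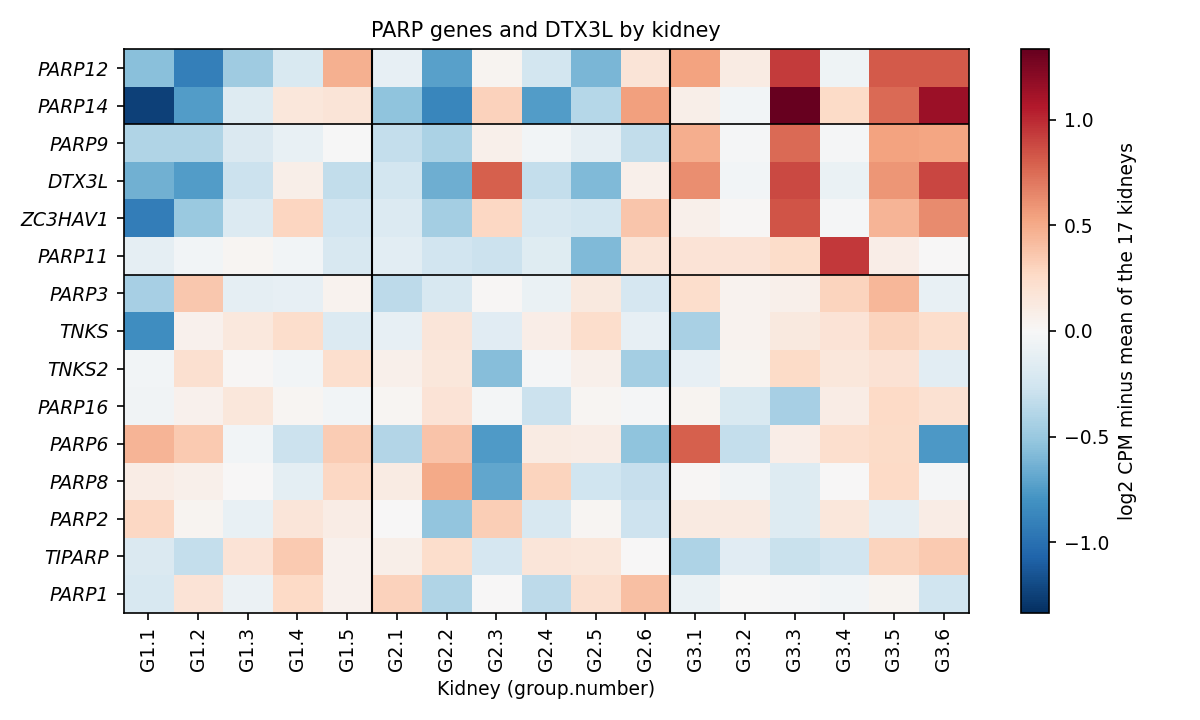
Log2 CPM of each PARP gene and of DTX3L (rows) in each kidney (columns, by group and number), as the difference from the mean of that gene over the 17 kidneys. G3 kidneys 3, 5 and 6 are high for PARP12, PARP14, PARP9, DTX3L and ZC3HAV1, and G3 kidney 4 is highest of all kidneys for PARP11.

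The genes that follow PARP12 and PARP14 from kidney to kidney were sought among 13710 genes with a mean of at least 1 CPM, after the mean of each group had been removed from log2 CPM. For PARP12 the 5 most alike over the 17 kidneys were HERC5 (Pearson r = 0.879), the main ligase for ISG15, the transcription factors IRF7 (0.863) and IRF1 (0.859), the centrosome protein gene CEP152 (0.858) and GBP1 (0.857), an interferon-induced GTPase. For PARP14 they were ZNFX1 (0.966), a helicase that senses viral RNA, RIGI (0.959), the RNA sensor RIG-I, IFIT5 (0.941), ZC3HAV1 (0.938) and IFIT1 (0.935). No gene was in both sets of 5. The members of the sets changed with the setting. With the code series means removed as well, CALR3 and STARD3 took the places of IRF7 and IRF1 for PARP12. For PARP14, RSAD2 and DHX58 then took those of IFIT5 and IFIT1. By Spearman correlation, ATP2B2 entered the set for PARP12 in place of IRF1. All points share their libraries, and the values are descriptions over 17 kidneys.

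PARP14 was in 33rd place for PARP12 (r = 0.752), and PARP12 was in 138th place for PARP14. DTX3L and PARP9 were in 42nd and 54th place for PARP12 and in 112th and 587th for PARP14, although PARP14 is their neighbour on the chromosome. ZC3HAV1 was in 93rd place for PARP12 and 4th for PARP14, and PARP11 was in 10622nd and 7492nd place. With the code series means removed as well, r between PARP12 and PARP14 was 0.683, and without G3 kidney 3 it was 0.727. The places moved more. With the code series means removed, PARP14 was 103rd and PARP9 185th for PARP12, while DTX3L was 62nd for PARP14. Without G3 kidney 3, PARP12 was 268th for PARP14, DTX3L 217th and PARP9 1428th. Of the 36 type I interferon response genes in this search, 27 were among the 138 genes most like PARP12 and 23 among the 138 most like PARP14. These counts became 20 and 25 with the code series removed, and 25 and 19 without G3 kidney 3. The median r of the 36 genes was 0.721 with PARP12 and 0.786 with PARP14, against 0.015 and 0.047 over all genes of the search.

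Upstream of both genes stand the interferon receptors, JAK kinases, STAT and IRF factors. Of 20 such genes none had an adjusted p under 0.05 by edgeR or DESeq2 in any comparison, while 6 had an unadjusted p under 0.05 between G3 and G1, all higher in G3 (1.94% of all genes were). The median log2 fold change of the 20 was 0.18, against -0.02 over all genes. USP18, which removes ISG15 and dampens the receptor, had 1.05 and IRF7 0.58, whereas TYK2 and IRF3 each had -0.04. In G2 against G1 the median was 0.08, and 2 of the 20 had an unadjusted p under 0.05, both higher in G2 (1.42% of all genes were). In G3 against G2 the median was 0.10, and 3 had, all higher in G3 (1.61% of all genes were).

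The type I interferon response genes, a list chosen with the study's interferon result known, all had positive log2 fold changes between G3 and G1 (46.9% of all genes did), so their direction is no separate evidence. Of 37 measured, 33 had an unadjusted p under 0.05 and a higher level in G3 (1.94% of all genes), and none had an adjusted p under 0.05 by edgeR's quasi-likelihood test, against 9 by DESeq2, which called 0.121% of all genes. Their median log2 fold change was 0.94 between G3 and G1, close to that of PARP14, 0.27 between G2 and G1, and 0.72 between G3 and G2. BST2 (tetherin, which holds virus particles at the cell surface) had the highest value, 2.08 (SE 0.332, adjusted p = 0.0721 by edgeR), followed by RSAD2 (viperin) at 1.80. SAMD9, an inhibitor of poxvirus replication, was among the lowest of the list at 0.33. Between G2 and G1, 2 of the 37 had an unadjusted p under 0.05, BST2 and ISG15, both higher in G2 (1.42% of all genes were). This number ran from 1 (without G1 kidney 1 or 2 or G2 kidney 1 or 6, and with library size alone, voom or either stricter count filter) to 4 (without G2 kidney 4 or 5, and with code series as a covariate). Between G3 and G2 27 had, all higher in G3 (1.61% of all genes were). At an adjusted p under 0.05, DESeq2 called 2 of the 37 between G3 and G2, DDX60 and IFI44L, among 3 of 25701 genes. With a kidney left out, the number with an unadjusted p under 0.05 between G3 and G2 ran from 19 to 31. It was 19 without G3 kidney 3 or 6 or G2 kidney 2 or 4, and 31 without G2 kidney 6. With kidney number as a block it was 34.

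Genes of the interferon gamma response and antigen presentation had a median of 0.36 between G3 and G1, and 5 of 18 had an unadjusted p under 0.05, namely CXCL10, PSMB8, TAP1, TAP2 and WARS1, all higher in G3 (1.94% of all genes were). CXCL10, a chemokine, had 1.16 and PSMB8, an immunoproteasome subunit, 0.89, while the adhesion molecule ICAM1 had -0.29 and IDO1, which degrades tryptophan, -0.51. None of the 18 had an adjusted p under 0.05 by edgeR, and DESeq2, which called 0.121% of all genes, called 2 of them, PSMB8 and TAP2.

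Because PARP14 is known as a co-activator of STAT6, the STAT6 and interleukin 4 response genes were listed as well. In G3 against G1 they had a median of 0.01, with 7 of 14 above 0, 2 with an unadjusted p under 0.05, CCL22 and ALOX15, both lower in G3 (2.79% of all genes were), and none with an adjusted p under 0.05 by edgeR or DESeq2. CISH, a cytokine signalling inhibitor, had 0.42 and the lectin gene CHI3L1 0.18, while the mannose receptor gene MRC1 had -0.40 and the chemokine gene CCL22 -0.62.

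The genes that bind or remove ADP-ribose did not share the pattern of PARP12 and PARP14. Of 8 measured, 3 had a positive log2 fold change between G3 and G1, the median was -0.10, and 1, MACROD1, had an unadjusted p under 0.05 and was lower in G3 (2.79% of all genes were). The hydrolase genes OARD1 and ADPRH had 0.34 and 0.30, and the ADP-ribose pyrophosphatase gene NUDT9 and the mitochondrial hydrolase gene MACROD1 had -0.31 and -0.32. Genes of NAD synthesis and use, the supply of the substrate, had a median of -0.04, with 7 of 15 positive, and 1, SIRT3, had an unadjusted p under 0.05 and was lower in G3. The share of all genes with an unadjusted p under 0.05 in this comparison was 4.73%. NMRK1 and NAMPT, both of the salvage route, had 0.20 and 0.14, the mitochondrial NAD kinase gene NADK2 had -0.29 and the deacylase gene SIRT3 -0.34. No gene of these 2 lists had an adjusted p under 0.05 by edgeR's quasi-likelihood test or by DESeq2.

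Leukocytes and endothelium also express interferon-induced PARP genes, and their markers were summed beside the results. The 12 leukocyte markers summed to 97.2 to 131 CPM in G1, 85.8 to 169 in G2 and 108.2 to 132.1 in G3, with medians of 120.5, 120.7 and 119.3. Between G3 and G1, 6 of the 12 had a positive log2 fold change, the median was 0.01 and none had an unadjusted p under 0.05 by edgeR. The 5 endothelial markers summed to 690 to 791 CPM in G1, 550 to 1107 in G2 and 563 to 1013 in G3, with medians of 771, 851 and 939. All 5 had a positive log2 fold change between G3 and G1 (46.9% of all genes did), with a median of 0.23, and 1, PECAM1, had an unadjusted p under 0.05 (1.94% of all genes did with a higher level in G3). The part of endothelial content in the PARP12 and PARP14 levels was not tested. Fibroblast and smooth muscle markers summed to 373 to 694 CPM in G1, 444 to 874 in G2 and 301 to 655 in G3, and between G3 and G2 2 of the 6, COL1A1 and COL3A1, had log2 fold changes of -0.63 and -0.97 with an unadjusted p under 0.05 (1.52% of all genes did with a lower level in G3). Red blood cell markers were scarce, at 1.42 to 3.51 CPM summed over 3 genes in G1, 1.04 to 5.09 in G2 and 0.0948 to 2.10 in G3. Their median log2 fold change was -0.85 between G3 and G1 and -1.17 between G3 and G2, where 1 of the 3, HBB, had -1.21 with an unadjusted p under 0.05. The part of these cells, or of the blood cells in the NMP solution, in the results was not tested either.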

How the data were processed

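RNA from biopsies of 17 kidneys was sequenced from stranded mRNA libraries. The authors trimmed the reads with cutadapt 4.0, aligned them to Sscrofa11.1 and deposited the raw read counts of each gene in each kidney, not normalized. The counting program and its strand setting are not given in the sources used here. Their second table, of 935 genes compared between G3 and G1 with DESeq2, holds log2 fold changes and p-values, and only its gene names were used.

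PARP12, PARP14 and all gene lists were chosen with earlier results of these data known. Identifiers were paired with symbols through a gene name table (15093 of 26560 matched). Each pair of groups was compared in R 4.3.3 with the quasi-likelihood test of edgeR 4.0.16 (TMM, genes with at least 1 count, Benjamini-Hochberg over all genes tested, threshold 0.05), on the kidneys of both groups alone. The scripts were tested on simulated data. CPM used TMM library sizes, and log2 CPM a prior count of 2. Correlations used exact permutation of kidneys within a group (Python 3.11.15, scipy 1.17.1). Alternatives were DESeq2 1.42.0, limma 3.58.1 voom with sample weights, other size factors and filters, all 3 groups in the fit, kidney number as a block, code series as a covariate, and each kidney left out. Beside PARP12, PARP14 and the PARP genes, the text names the 2 list members with the highest and the 2 with the lowest log2 fold change between G3 and G1, at a mean of at least 1 CPM, and the 5 genes most like each of PARP12 and PARP14. The value of 1 gene that this rule names is not reported here. Each kidney came from its own animal, so p-values measure the spread between animals. No sequences were used.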

Additional observations from a re-analysis of the deposited data

Results flagged for a closer look

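Among the PARP genes and the other values reported for G2 and G3, 57 groups of values were searched for a kidney far from the others of its group, and 2 were found, where chance gives about 1 in 20 groups, or 2.85. PARP11 stood apart in G3 kidney 4, at a log2 CPM of 3.09, with a gap to the next kidney of 0.744 of the range of its group. TNKS stood apart in G3 kidney 1, the lowest of its group at a log2 CPM of 5.10, with a gap of 0.654 of the range. PARP12 and PARP14 had no such kidney in G2 or G3.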

How the results depend on the processing

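PARP12 kept its sign and its failure of the adjusted threshold between G3 and G2 under every alternative run (log2 fold change 0.68 to 0.84, and 0.70 to 0.89 with a kidney left out, with an adjusted p of 0.0886 to 1.00). PARP14 did so at 0.86 to 0.89, and 0.69 to 1.07 with a kidney left out, but for the replicate block, which gave 0.87 with an adjusted p of 0.0373 by edgeR. Kidney numbers do not pair animals: 1 kidney came from each, and the deviations of like-numbered kidneys correlated from -0.255 to 0.445. Between G3 and G1, the values were 0.60 to 0.83 (0.71 to 1.09 with a kidney left out) for PARP12 and 0.61 to 0.96 (0.76 to 1.09) for PARP14. The lowest values, 0.60 and 0.61, both came from the fit with code series as a covariate, against 0.82 and 0.95 without it. Between G2 and G1, PARP12 turned to -0.0653 with library size alone and -0.11 with code series, and spanned -0.0826 to 0.30 with a kidney left out. PARP14 turned to -0.0209 with library size alone, -0.0551 with voom and -0.0758 with the replicate block, and spanned -0.11 (without G2 kidney 6) to 0.23. The cause was not tested.

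In G3 against G1, edgeR called 2 genes at an adjusted p under 0.05, but there were 31 by DESeq2 (25 without independent filtering), 1 by voom, 1 with either stricter count filter, 0 with all 3 groups fitted (1126 at an unadjusted p under 0.05), 9 with the replicate block, 11 with code series and 0 to 9 with a kidney left out (9 without G1 kidney 5, and 0 without G1 kidney 1 or 3 or G3 kidney 2 or 5). Between G2 and G1 they numbered 0, but 1 by DESeq2 with or without independent filtering, 2 with code series, and 0 with any kidney left out. Between G3 and G2 they numbered 0, but 3 by DESeq2 with or without independent filtering, 7 with the replicate block and 0 to 5 with a kidney left out (5 without G2 kidney 2). With a kidney left out, the correlation of PARP12 with PARP14 ran from 0.630 to 0.849 in G2 and from 0.740 to 0.905 in G3. It was 0.843 without G2 kidney 5 (exact permutation p = 0.0417) and 0.890 without G3 kidney 4 (exact permutation p = 0.0167). With code series removed it was 0.899 in G3, a value set by the 4 kidneys of series C. Counting error was small beside the differences between animals, and the 5 or 6 kidneys per group limit what can be told. The counts of list members under other tools or with a kidney left out, and the search for like genes with code series removed or without G3 kidney 3, were chosen after seeing the data.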
